A study of Homo sapiens with 12 samples.

Results

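Expression of 50 genes of mitosis and the G2/M transition was measured by bulk RNA sequencing in HEK293, a human embryonic kidney cell line, after inhibition of the Mediator kinases with and without the cytokine TNFα. The 50 genes were taken by name as mitotic kinases, spindle, kinetochore and anaphase-promoting complex (APC) genes and their partners. All 50 were found among the 56634 gene symbols of the count table, 48 under the listed symbol and 2, SGOL1 and SGOL2, under the current symbols SGO1 and SGO2. All 50 were also among the 14822 genes that passed a filter on low counts and were tested. The 12 libraries came from 4 groups of 3 biological replicates. TNF_SnxB cells received 1 µM Senexin B, an inhibitor of the kinases CDK8 and CDK19, for 1 h and then 10 ng/mL TNFα for 2 h. TNF cells received 0.1% DMSO, the solvent, for 1 h and then the same TNFα treatment. SnxB cells received 1 µM Senexin B and DMSO cells 0.1% DMSO over the same 3 h, without TNFα. All cells were plated 24 h before treatment and the labels name no step to synchronise them.

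Mitotic genes are transcribed in a wave that begins late in S phase and peaks in G2 and mitosis, and many of their products are destroyed as cells leave mitosis. Their promoters are held silent earlier in the cycle by the DREAM complex and are switched on by B-MYB, FOXM1 and NF-Y. The CHR element, through which DREAM and the B-MYB complex bind, and CCAAT boxes, bound by NF-Y, are typical of these promoters. In a growing culture the amount of such mRNA in bulk depends both on the share of cells in G2 and mitosis and on the amount per cell, and these cannot be told apart here. CDK8 and CDK19, with cyclin C, form the kinase module of Mediator, the complex that links transcription factors to RNA polymerase II.

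The libraries held 8705277 to 50943310 counts, with TNF replicate 2 the deepest. A detection floor of 3 counts stood at 0.0589 to 0.345 CPM (counts per 1000000 counts) of the raw library total. The CPM of genes are per 1000000 counts of the library size after TMM scaling. MYC, a growth-promoting transcription factor and a known target of Mediator kinase inhibition, averaged 18.0 CPM in SnxB and 90.9 CPM in DMSO, while CDK8 itself was not called in any comparison. Of 8 HEK293 markers, VIM, KRT8, KRT18, NEFL, INA and NEFH stood at medians of 16 to 495 CPM and PAX2 and NEFM at 0.546 and 0.701 CPM. Their sum was lower in every library with Senexin B, at 779 to 802 CPM in TNF_SnxB against 875 to 889 in TNF, and 769 to 811 in SnxB against 847 to 869 in DMSO. Of the 6 of them that were tested, 4 fell in TNF_SnxB against TNF (1 with offsets for transcript GC content and length, 2 without TNF_SnxB replicates 2 and 3) and 1 in SnxB against DMSO, and the part of this in the results was not tested. Of 12 markers of other cell types PTPRC, CD3E, PECAM1, COL1A2, DCN and ALB stood at a median of 0, CD14 and VWF at 0.563 and 0.18 CPM, and EPCAM, COL1A1 and CDH1 at 57.3, 14.6 and 3.85 CPM. The sum of the 12 ran from 75.8 to 80.5 CPM in TNF_SnxB, 75.4 to 76.6 in TNF, 75 to 79.7 in SnxB and 77.9 to 80 in DMSO. TNF_SnxB replicates 2 and 3 stood apart from all other libraries. Their chi-square per degree of freedom against TNF_SnxB replicate 1 was 5.79 and 5.52, against 1.07 to 1.59 for all other pairs within a group. Their deviation from the mean of each gene ran against transcript GC content (Spearman -0.697 and -0.692 across 13702 genes, and -0.868 and -0.827 across the 50 members), whereas TNF_SnxB replicate 1 gave 0.132 and 0.459. Genes share their library and are not independent replicates, so these correlations describe the libraries. Counts and calls that rest on TNF_SnxB are therefore set beside those with fitted offsets for transcript GC content and length (called the GC correction here) and those without replicates 2 and 3.

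Promoters of 43 of the 50 genes were found in RefSeq (GRCh38.p14), as windows of 250 bases before to 50 bases after the start of the gene. AURKA, BUB3, TTK, UBE2C, BIRC5, TPX2 and FOXM1 have no window here. The promoters below are those of 5 genes that rose with Senexin B, shown because they hold different sets of the typical mitotic elements. Capitals mark the CHR motif and the CCAAT box. The CHR motif was searched as TTTGAA, which a reader of the opposite strand sees as TTCAAA, and as TTTAAA, which reads the same on both strands. The box was searched as CCAAT, seen from the opposite strand as ATTGG. The windows are chr5:69166900-69167199 on the plus strand for CCNB1, chr1:43358731-43359030 on the plus strand for CDC20, chr22:46296620-46296919 on the plus strand for GTSE1, chr18:2571307-2571606 on the plus strand for NDC80 and chr1:109283096-109283395 on the minus strand for PSRC1, each printed 5′ to 3′ in the direction of the gene.
CCNB1: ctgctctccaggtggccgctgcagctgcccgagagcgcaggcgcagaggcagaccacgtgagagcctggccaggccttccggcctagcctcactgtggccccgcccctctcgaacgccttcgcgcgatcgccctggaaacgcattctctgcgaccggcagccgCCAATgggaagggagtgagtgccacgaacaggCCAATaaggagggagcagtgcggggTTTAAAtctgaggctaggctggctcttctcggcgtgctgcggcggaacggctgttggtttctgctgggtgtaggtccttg
CDC20: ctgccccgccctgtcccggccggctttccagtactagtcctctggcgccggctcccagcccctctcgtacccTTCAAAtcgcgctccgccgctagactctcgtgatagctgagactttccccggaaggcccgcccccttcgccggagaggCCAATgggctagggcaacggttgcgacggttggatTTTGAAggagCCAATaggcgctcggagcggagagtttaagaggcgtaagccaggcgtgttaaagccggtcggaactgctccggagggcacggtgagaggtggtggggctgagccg
GTSE1: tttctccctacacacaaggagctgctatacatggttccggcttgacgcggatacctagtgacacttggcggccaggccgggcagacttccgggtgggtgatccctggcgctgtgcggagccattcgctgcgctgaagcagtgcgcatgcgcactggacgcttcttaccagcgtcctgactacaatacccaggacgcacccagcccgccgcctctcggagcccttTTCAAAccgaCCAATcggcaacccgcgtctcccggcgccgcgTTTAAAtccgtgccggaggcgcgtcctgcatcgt
NDC80: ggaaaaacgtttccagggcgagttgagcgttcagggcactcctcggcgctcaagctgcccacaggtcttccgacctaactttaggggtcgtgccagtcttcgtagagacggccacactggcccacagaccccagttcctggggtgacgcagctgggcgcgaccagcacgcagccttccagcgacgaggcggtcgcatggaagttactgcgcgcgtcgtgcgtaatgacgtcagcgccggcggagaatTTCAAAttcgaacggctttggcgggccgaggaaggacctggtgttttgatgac
PSRC1: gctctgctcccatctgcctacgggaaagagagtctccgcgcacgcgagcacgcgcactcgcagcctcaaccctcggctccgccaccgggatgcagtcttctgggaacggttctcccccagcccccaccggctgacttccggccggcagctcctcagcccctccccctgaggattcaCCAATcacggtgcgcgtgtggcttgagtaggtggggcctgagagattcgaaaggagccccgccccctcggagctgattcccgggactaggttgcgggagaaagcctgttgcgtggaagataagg
CCNB1 and CDC20 hold both motifs with 2 CCAAT boxes each, GTSE1 holds 2 CHR motifs and 1 CCAAT box, NDC80 a CHR motif alone and PSRC1 a CCAAT box alone. Of the 43 promoters 35 (81.4%) held a CHR motif, against 24.3% of all 27305 promoter windows. CCAAT boxes stood in 35 (81.4%), against 35.7% of all windows, and both motifs in 29 (67.4%), against 9.49%. Among the 12 found promoters of genes that rose in SnxB, 11 held a CHR motif, 10 a CCAAT box and 9 both, and among the other 31 members 24, 25 and 20. A match of letters is a description and not evidence of binding.

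The effect of Mediator kinase inhibition for 3 h on these genes, without TNFα, was read from SnxB and DMSO. Of the 50 genes, 14 rose and 0 fell (edgeR quasi-likelihood test, Benjamini-Hochberg adjusted p under 0.05), where 0.344% of all tested genes rose and 1.69% fell. They were the kinases AURKA and TTK, the cyclin CCNB1, the APC activator CDC20, the kinesins KIF14, KIFC1, KIF2C and KIF23, the kinetochore gene NDC80, the chromosomal passenger genes CDCA8 and INCENP, and the spindle genes PSRC1, GTSE1 and DLGAP5. The rises were small, 1.10-fold to 1.33-fold. The median log2 fold change of the 50 genes was 0.12, against 0.00 over all tested genes, and 46 of 50 had a positive value. At an unadjusted p under 0.05, 31 were higher and 1 lower, where 5.28% and 6.79% of all tested genes were, and DESeq2 called 14 higher and 0 lower.

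**Figure D1:**
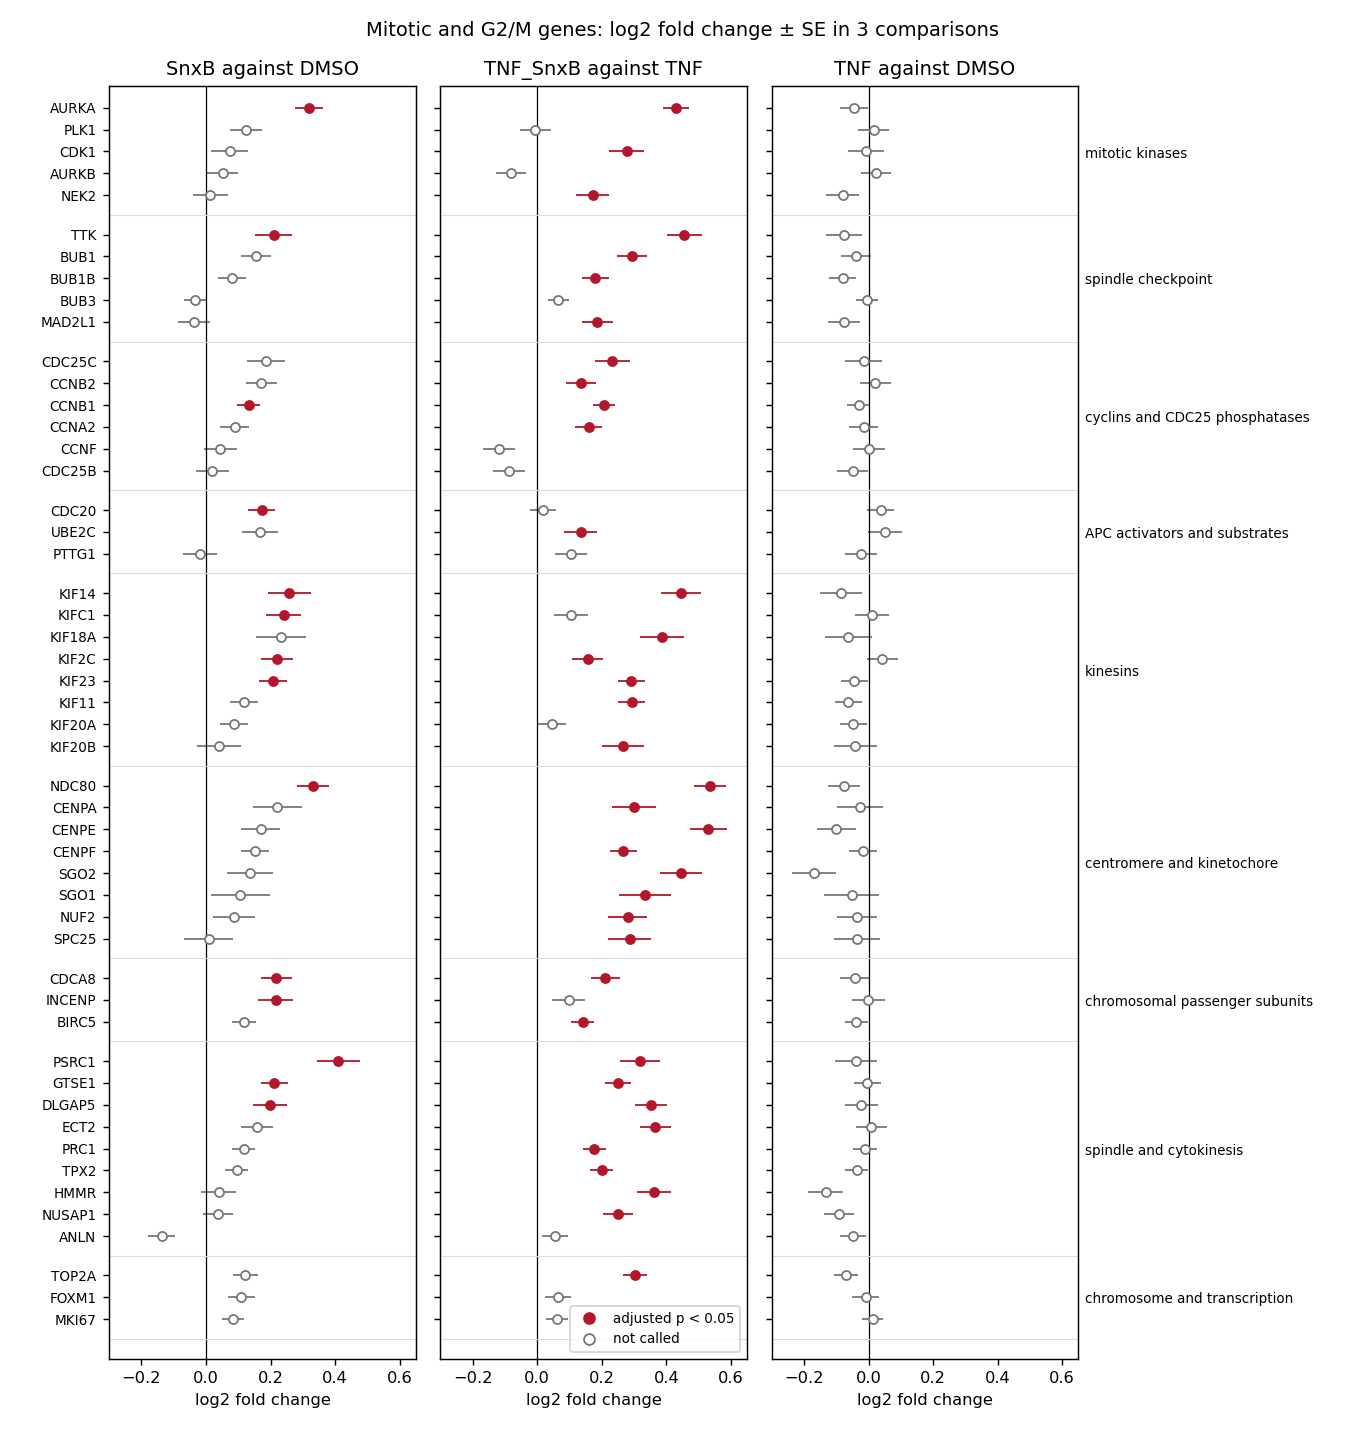
Log2 fold change (x axis) of each of the 50 genes (rows, grouped by role) in SnxB against DMSO, TNF_SnxB against TNF and TNF against DMSO, with bars of 1 SE and filled red points at an adjusted p under 0.05. Red points lie to the right of 0 in both Senexin B panels, 14 and 37 of 50, and the TNF panel has none.

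AURKA, the Aurora kinase of the spindle poles (chr20:56369389-56392337, minus strand), had 170, 184 and 179 CPM in SnxB, against 144, 141 and 142 CPM in DMSO. Every SnxB library stood above every DMSO library, with a log2 fold change of 0.32 (SE 0.0434, adjusted p = 1.19e-05). AURKB, the Aurora kinase of the chromosomal passenger complex, had 155, 150 and 156 CPM in SnxB and 147, 148 and 149 CPM in DMSO, a difference of 0.05 (SE 0.0481) that was not called. The other mitotic kinases PLK1, CDK1 and NEK2 had 0.12, 0.07 and 0.01 and were not called either. TTK (MPS1), the kinase that starts the spindle checkpoint, had 97.5, 109 and 103 CPM in SnxB and 90, 88.4 and 89.6 CPM in DMSO. It rose by 0.21 (SE 0.0566), with an adjusted p of 0.0483 close to the threshold. The remaining checkpoint genes BUB1, BUB1B, BUB3 and MAD2L1 ranged from 0.15 to -0.04, and BUB3 had 351, 352 and 340 CPM in SnxB, all under the 353, 361 and 354 CPM in DMSO.

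Of the 6 cyclins and CDC25 phosphatases only CCNB1 (cyclin B1), the partner of CDK1 at entry into mitosis, was called. Its level was 349, 349 and 352 CPM in SnxB, against 317, 317 and 324 CPM in DMSO. The libraries of each group lay close together, and the rise of 0.13 (SE 0.0349, adjusted p = 0.0405) was the smallest of the 14. CCNB2, CCNA2, CCNF, CDC25B and CDC25C, all positive at 0.02 to 0.19, did not pass. CDC20, which activates the APC when the checkpoint is satisfied, had 261, 266 and 259 CPM in SnxB and 230, 236 and 231 CPM in DMSO. It rose by 0.17 (SE 0.0412, adjusted p = 0.019). UBE2C, the ubiquitin-conjugating enzyme of the APC, was at 0.17 without a call, and PTTG1 (securin), which the APC degrades, at -0.02.

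NDC80, the microtubule-binding subunit of the outer kinetochore (chr18:2571511-2616635, plus strand), had 118, 125 and 120 CPM in SnxB, against 95.3, 93.9 and 98.3 CPM in DMSO. The groups were well separated, and the log2 fold change was 0.33 (SE 0.051, adjusted p = 9.56e-05). Of its partners in the NDC80 complex, NUF2 was at 0.09 (SE 0.0654) and SPC25 at 0.01 (SE 0.0762), neither called. CENPA, CENPE, CENPF, SGO1 and SGO2, which build or guard the centromere, had 0.11 to 0.22 and were not called. All 8 centromere and kinetochore genes were positive. In the chromosomal passenger complex CDCA8 (borealin) had 117, 113 and 112 CPM in SnxB and 94.8, 96.7 and 102 CPM in DMSO, and rose by 0.22 (adjusted p = 0.00815). INCENP, its scaffold, had 145, 135 and 139 CPM in SnxB and 119, 123 and 119 CPM in DMSO, and rose by 0.22 (adjusted p = 0.0242). For both genes the groups did not overlap, and BIRC5 (survivin) was at 0.12 without a call.

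Kinesins, the motors that build the spindle and move chromosomes, had 4 of 8 members called. KIF23, a motor of the central spindle, had 156, 154 and 147 CPM in SnxB and 131, 133 and 132 CPM in DMSO, and rose by 0.21 (adjusted p = 0.00561). KIFC1, a minus-end motor that focuses spindle poles, had 112, 105 and 105 CPM in SnxB and 90.4, 92.8 and 89.9 CPM in DMSO, and rose by 0.24 (adjusted p = 0.0116). In both the lowest SnxB library was above the highest DMSO library. KIF2C (MCAK), which takes microtubules apart at the centromere, had 119, 114 and 106 CPM in SnxB and 97.2, 92.9 and 100 CPM in DMSO, and rose by 0.22 (adjusted p = 0.0124). KIF14, a motor of cytokinesis, had 99.9, 108 and 94.5 CPM in SnxB and 87.2, 80 and 85.5 CPM in DMSO, and rose by 0.26 (adjusted p = 0.0305). KIF18A had the widest error of the rest, at 0.23 (SE 0.0775, adjusted p = 0.145), and KIF11, KIF20A and KIF20B were at 0.12, 0.09 and 0.04.

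PSRC1, a microtubule-associated spindle protein (chr1:109279556-109283186, minus strand), had the largest rise of the 50. Its level was 54.4, 47.6 and 51.4 CPM in SnxB, against 38.4, 38.9 and 38 CPM in DMSO, a log2 fold change of 0.41 (SE 0.0668, adjusted p = 0.000224). GTSE1, a microtubule-binding protein of G2 and mitosis (chr22:46296741-46330810, plus strand), had 152, 150 and 153 CPM in SnxB and 130, 131 and 133 CPM in DMSO, and rose by 0.21 (SE 0.0421, adjusted p = 0.00301). DLGAP5 (HURP), which stabilises microtubules near chromosomes, had 169, 167 and 171 CPM in SnxB and 146, 144 and 152 CPM in DMSO, and rose by 0.20 (adjusted p = 0.0389). These genes again did not overlap between the groups. Among the other 6 spindle and cytokinesis genes ECT2, PRC1, TPX2, HMMR and NUSAP1 were at 0.04 to 0.16, and ANLN (anillin), the scaffold of the contractile ring, was the member with the lowest value. ANLN had 173, 168 and 165 CPM in SnxB, all under the 180, 187 and 190 CPM in DMSO, at -0.14 (SE 0.0417, adjusted p = 0.0942). TOP2A, MKI67 and FOXM1 were at 0.12, 0.08 and 0.11 and none was called, with 3 of 3 at an unadjusted p under 0.05. In 37 of the 50 genes (74%) all SnxB libraries stood above all DMSO libraries, against 9.48% of all tested genes, and in 2 (4%), BUB3 and ANLN, all stood below, against 10.9%.

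**Figure D2:**
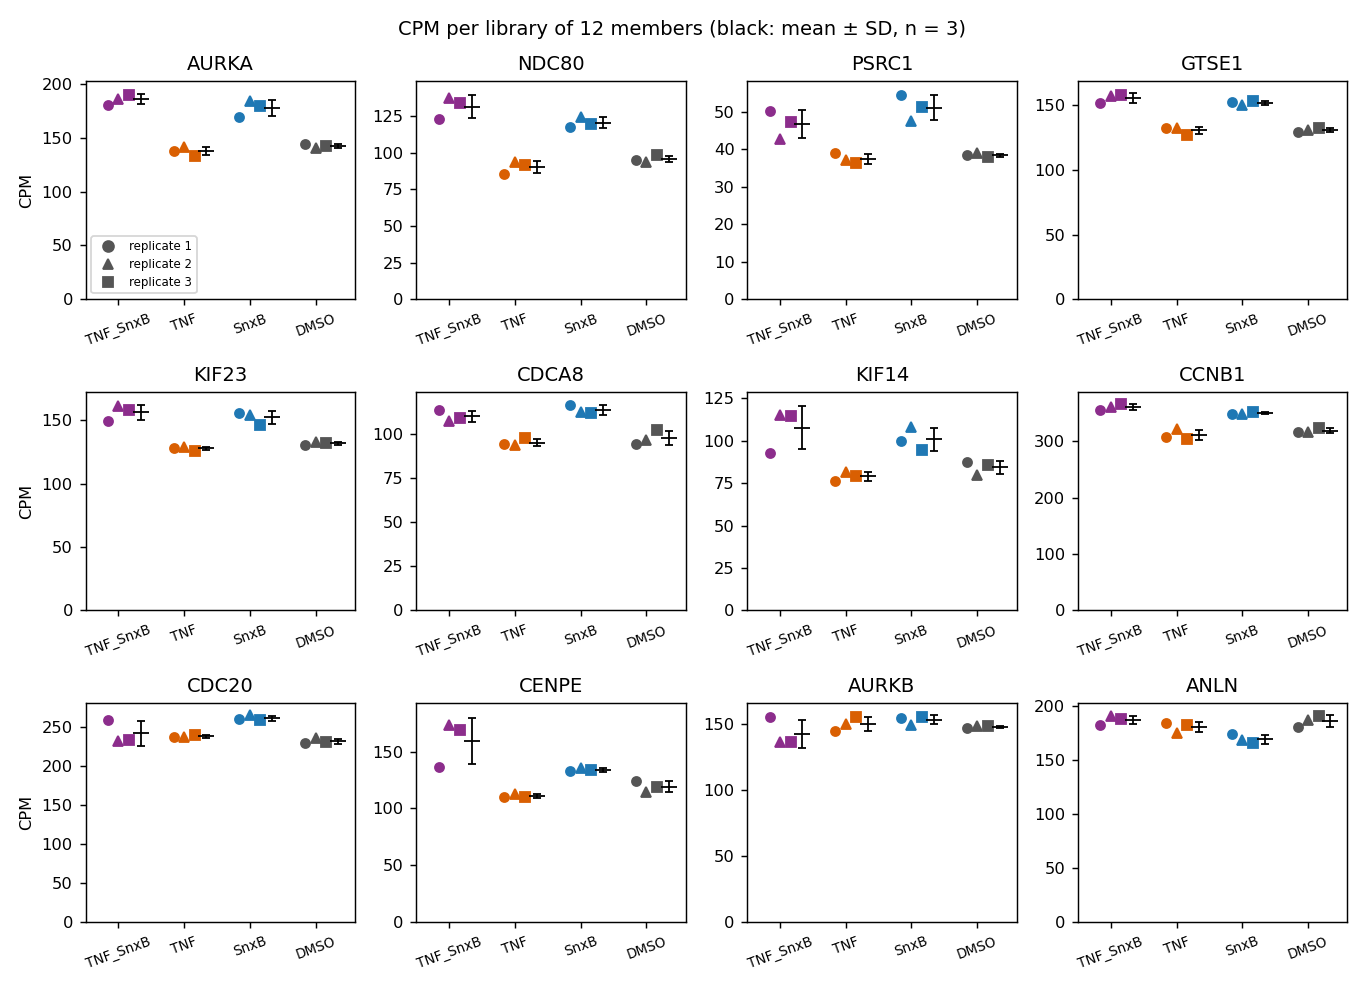
CPM (y axis, from 0) of 12 of the 50 genes in each library, by group, with replicates 1 to 3 as circle, triangle and square and the mean ± SD (n = 3) in black. AURKA, NDC80 and PSRC1 stand higher in TNF_SnxB than in TNF and in SnxB than in DMSO without overlap, while CENPE in TNF_SnxB splits into 137 CPM in replicate 1 and 174 and 169 CPM in replicates 2 and 3.

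The number of calls moved with the libraries in the fit. Without DMSO replicate 1, 2 or 3 it was 5, 9 or 7, and without SnxB replicate 1, 2 or 3 it was 5, 7 or 9. Without TNF_SnxB replicate 1, which has no part in the comparison other than the shared spread, 30 rose and 1, ANLN, fell, against 1.66% and 4.3% of all genes. The same counts of 30 and 1 came after the GC correction, where 1.2% of all genes rose and 3.89% fell, and without TNF_SnxB replicates 2 and 3, where 1.68% rose and 4.2% fell. AURKA, NDC80, PSRC1 and GTSE1 were called under all 21 alternatives. KIF23, CDCA8, KIFC1, KIF2C, CDC20, INCENP, KIF14, DLGAP5, CCNB1 and TTK lost the call under some of them, with highest adjusted p of 0.0607, 0.0844, 0.118, 0.129, 0.133, 0.171, 0.286, 0.192, 0.293 and 0.331.

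The comparison of TNF with DMSO asks what TNFα did in 2 h without the inhibitor. No member was called in it, where 1.43% of all tested genes rose and 0.594% fell by edgeR, and DESeq2 called 0 as well. At an unadjusted p under 0.05, 2 were lower, against 5.07% of all genes. These were HMMR, a spindle assembly protein, at -0.13 (SE 0.0532, adjusted p = 0.319) and SGO2, a protector of centromere cohesion, at -0.17 (SE 0.0687, adjusted p = 0.338). The median over the 50 genes was -0.04, against -0.0025 over all genes. Over the 50 genes the fold change ran with transcript GC content (Spearman 0.568), and after the GC correction this was -0.00581. HMMR, SGO2 and TOP2A, of 37.2, 34.9 and 39.1% GC, were then at -0.09, -0.13 and -0.03 (edgeR adjusted p of 0.135, 0.106 and 0.611). No member was called after the correction, where 600 of all tested genes were. TNF libraries stood below all DMSO libraries in 9 genes (18%), against 10.0% of all tested genes, and above in 1, CDC20 (2%), against 10.2%. HMMR, SGO2 and TOP2A were called lower without TNF_SnxB replicates 2 and 3, where 2.35% of all genes were, and 3 members were called lower without TNF_SnxB replicate 1, against 2.31% of all genes.

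What the inhibitor changed in the presence of TNFα was read from TNF_SnxB and TNF, a comparison that shares no library with that of SnxB with DMSO. Here 37 of the 50 genes rose and 0 fell, against 13.3% of all tested genes higher and 13.9% lower (edgeR, adjusted p under 0.05). DESeq2 called 36 higher and 0 lower, and 1 member was lower at an unadjusted p under 0.05, against 19.5% of all genes. The median log2 fold change was 0.22, against 0.00 over all genes. Over the 50 genes the fold change ran against transcript GC content (Spearman -0.728), and after the GC correction this was 0.0436. With the correction 34 rose and 1, ANLN, fell, against 3.92% of all genes higher and 6.5% lower, and the median was 0.15. Without TNF_SnxB replicates 2 and 3, which leaves replicate 1 alone and assumes that it varies like the other groups, 22 rose and 0 fell, against 0.722% of all genes higher and 1.97% lower, with a median of 0.16. In 38 genes (76%) all TNF_SnxB libraries stood above all TNF libraries, against 15.6% of all tested genes.

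AURKA had 181, 186 and 190 CPM in TNF_SnxB, against 138, 141 and 133 CPM in TNF. The libraries of TNF_SnxB lay together, and the log2 fold change of 0.43 (SE 0.0417, adjusted p = 1.44e-08) was 0.36 after the correction and 0.38 without replicates 2 and 3. Among the other kinases CDK1 had 252, 326 and 312 CPM in TNF_SnxB and 243, 244 and 250 CPM in TNF, so that replicates 2 and 3 were high and replicate 1 was near TNF. Its rise of 0.28 (adjusted p = 0.00064) came to 0.06 after the correction (adjusted p = 0.132) and 0.04 without replicates 2 and 3 (adjusted p = 0.789). NEK2, a centrosome kinase, rose by 0.17, and was at 0.08 after the correction (adjusted p = 0.236) and 0.15 without replicates 2 and 3 (adjusted p = 0.333), not called in either. PLK1, the Polo-like kinase, had 271, 229 and 233 CPM in TNF_SnxB and 245, 243 and 247 CPM in TNF. Its value of -0.01 was not called, and it was 0.12 after the correction (adjusted p = 0.00173) and 0.15 without replicates 2 and 3 (adjusted p = 0.0202).

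TTK had 105, 125 and 118 CPM in TNF_SnxB and 83.9, 86.5 and 82.8 CPM in TNF. It rose by 0.46 (SE 0.053), with 0.28 after the correction and 0.30 without replicates 2 and 3, and kept its call in each. BUB1, the checkpoint kinase, rose by 0.29, and by 0.19 and 0.17 under these settings. MAD2L1 rose by 0.19 and was at 0.01 in each without a call. BUB1B rose by 0.18, and was at 0.09 (adjusted p = 0.0506) and 0.15 (adjusted p = 0.0934), also without a call. Of the cyclins and phosphatases CCNB1 had 355, 361 and 366 CPM in TNF_SnxB and 309, 322 and 305 CPM in TNF, and rose by 0.21 (0.11 and 0.18 under these settings, called in each). CDC25C rose by 0.23 (0.20 after the correction, and 0.21 without replicates 2 and 3 with an adjusted p of 0.165). CCNA2 and CCNB2 rose by 0.16 and 0.14 and were not called under either, at 0.04 and 0.09 after the correction and 0.07 and 0.05 without replicates 2 and 3. CDC20 had 260, 233 and 234 CPM in TNF_SnxB and 238, 238 and 241 CPM in TNF, at 0.02 without a call, was called at 0.15 after the correction and stood at 0.13 without replicates 2 and 3 (adjusted p = 0.0695). UBE2C rose by 0.13, with an edgeR adjusted p of 0.0492, and was called in 6 of 21 alternatives. It was called at 0.18 after the correction and was not called without replicates 2 and 3, at 0.13.

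All 8 centromere and kinetochore genes rose. NDC80 had 123, 138 and 134 CPM in TNF_SnxB, against 85.8, 93.5 and 91.9 CPM in TNF. It was the member with the largest rise, 0.54 (SE 0.0481, adjusted p = 3.22e-09), and gave 0.38 after the correction and 0.42 without replicates 2 and 3. CENPE, the kinesin of the kinetochore, had 137, 174 and 169 CPM in TNF_SnxB and 110, 113 and 110 CPM in TNF. Its 0.53 (SE 0.0575) came to 0.28 after the correction and 0.29 without replicates 2 and 3, called in each. CENPF, SGO2, SGO1, CENPA, NUF2 and SPC25 rose by 0.27, 0.45, 0.33, 0.30, 0.28 and 0.29. After the correction the first 4 of these stayed called at 0.11, 0.20, 0.20 and 0.29, while NUF2 and SPC25 did not, at 0.12 and 0.14. Without replicates 2 and 3 CENPF was called at 0.14, and SGO2, SGO1, CENPA, NUF2 and SPC25 were not, at 0.21, 0.22, 0.25, 0.13 and 0.07 (adjusted p of 0.13, 0.423, 0.266, 0.414 and 0.838). Counts of SGO1 may include reads of SGO1-AS1, which overlaps 17.9% of it on the other strand, since the strand setting of the counting is not given.

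CDCA8 had 114, 108 and 109 CPM in TNF_SnxB and 94.5, 93.8 and 97.9 CPM in TNF, and rose by 0.21 (0.25 and 0.26 under the other settings). BIRC5 rose by 0.14 (0.19 after the correction, and 0.12 without replicates 2 and 3 with an adjusted p of 0.0937). INCENP had 144, 123 and 121 CPM in TNF_SnxB and 121, 119 and 121 CPM in TNF, so that replicate 1 alone stood clearly above TNF. It was not called at 0.10, and was called at 0.26 under both other settings. KIFC1 showed the same order, with 109, 91.8 and 96.1 CPM in TNF_SnxB and 92.1, 90.8 and 92.2 CPM in TNF, at 0.10 without a call and 0.24 and 0.25 with one. Of the other kinesins KIF14, KIF23 and KIF11 rose by 0.45, 0.29 and 0.29 and kept the call under both settings at 0.11 to 0.23. KIF18A and KIF2C rose by 0.39 and 0.16, stayed called after the correction at 0.18 and 0.16, and were not called without replicates 2 and 3, at 0.23 and 0.14 (adjusted p of 0.223 and 0.259). KIF20B, a kinesin of cytokinesis, had 129, 172 and 162 CPM in TNF_SnxB and 129, 131 and 127 CPM in TNF, a rise of 0.26 that became -0.01 under both settings without a call.

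PSRC1 had 50.2, 42.8 and 47.4 CPM in TNF_SnxB, against 39, 37.2 and 36.4 CPM in TNF. It rose by 0.32 (SE 0.0617), and by 0.44 after the correction and 0.43 without replicates 2 and 3. GTSE1 had 151, 157 and 158 CPM in TNF_SnxB and 133, 132 and 127 CPM in TNF, and rose by 0.25 (0.32 and 0.21 under these settings). Both genes thus kept the call and the direction in each. ECT2, DLGAP5, HMMR, TPX2 and PRC1 rose by 0.37, 0.35, 0.36, 0.20 and 0.18, and remained called under both settings at 0.15 to 0.21. NUSAP1 rose by 0.25 and was called after the correction at 0.14, but not without replicates 2 and 3, at 0.10 (adjusted p = 0.289). PRC1 and NUSAP1 share 65.2% and 72.8% of their exons with a readthrough gene on the same strand, so their counts are uncertain. ANLN had 182, 190 and 187 CPM in TNF_SnxB and 184, 175 and 182 CPM in TNF, at 0.06 without a call, and was called lower at -0.09 after the correction. TOP2A, the topoisomerase that untangles chromosomes, had 878, 1011 and 987 CPM in TNF_SnxB and 785, 779 and 771 CPM in TNF, and rose by 0.30 (0.13 and 0.17, called in each). FOXM1, at 0.06 with all libraries, was called after the correction at 0.14 and not without replicates 2 and 3 at 0.13 (adjusted p = 0.0873), and MKI67 at 0.06 was called in none of these settings.

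**Figure D3:**
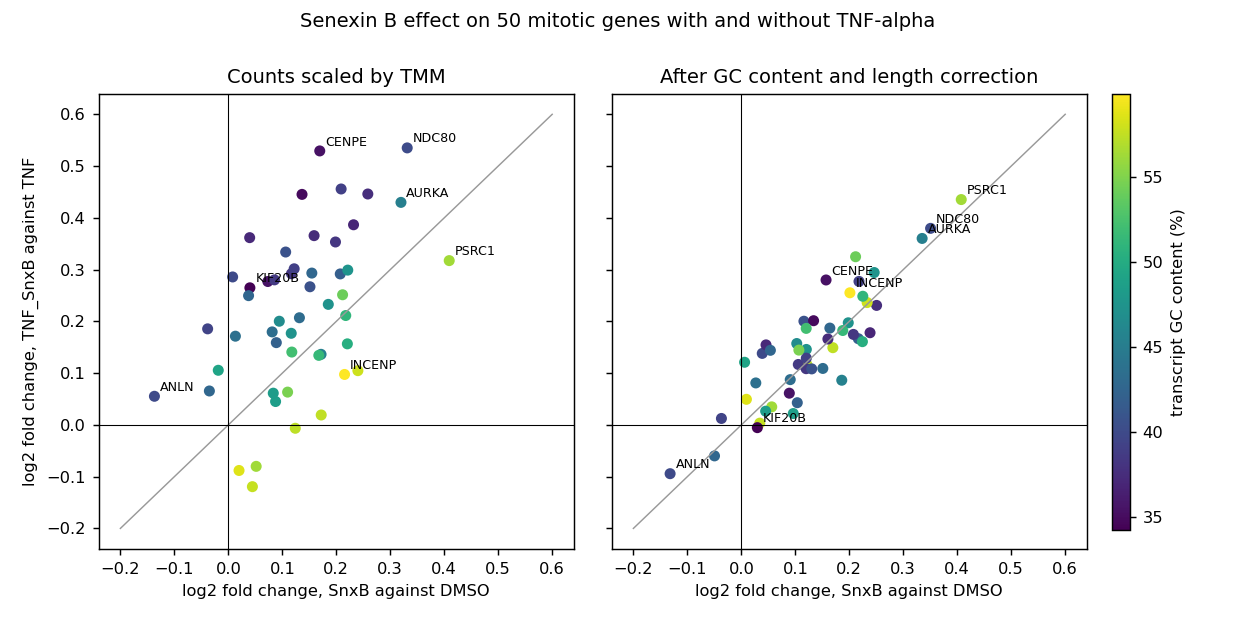
Effect of Senexin B on the 50 genes as log2 fold change, in the presence of TNFα on the y axis (TNF_SnxB against TNF) and in its absence on the x axis (SnxB against DMSO), coloured by transcript GC content, with a line of equal effects, as fitted (left) and after the GC correction (right). Genes of low GC content such as CENPE lie above the line on the left, and after the correction PSRC1, NDC80 and AURKA lie at the top of a band along the line with ANLN at its foot.

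The Senexin B comparisons have no library in common. Their tests share an estimate of the spread of each gene from all libraries in the fit, so their calls are not independent. Both comparisons called 11 of the same genes higher. These were AURKA, NDC80, PSRC1, GTSE1, KIF23, CDCA8, KIF2C, KIF14, DLGAP5, CCNB1 and TTK, 78.6% of the 14 in SnxB against DMSO and 29.7% of the 37 in TNF_SnxB against TNF. The share of 78.6% stands beside the 74% of all 50 members that rose in the second comparison, and over all tested genes 31 were shared, 60.8% of 51 and 1.57% of 1974. After the correction 29 members were shared, 96.7% of 30 and 85.3% of 34, with 68% of the members higher in the second comparison, and over all genes 101, 56.7% of 178 and 17.4% of 581. Without TNF_SnxB replicates 2 and 3 it was 21 members, 70% of 30 and 95.5% of 22, with 44% of the members higher in the second comparison, and over all genes 45, 18.1% of 249 and 42.1% of 107. Values were positive in both comparisons for 42 of the 50 genes, for 46 after the correction and for 44 without these replicates.

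The level of the 50 genes as a whole is seen in the median log2 difference of each library from the DMSO mean of each gene. It was 0.131, 0.2 and 0.221 in TNF_SnxB, -0.0298, -0.0228 and -0.0319 in TNF, 0.123, 0.136 and 0.123 in SnxB and -0.00948, -0.0176 and 0.0145 in DMSO. All 6 libraries with Senexin B were above all 6 without it, and TNF_SnxB replicates 2 and 3 were the highest. After the correction the medians were 0.133, 0.139 and 0.122 in TNF_SnxB and 0.13, 0.139 and 0.122 in SnxB, so that those 6 libraries spanned the same range.

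**Figure D4:**
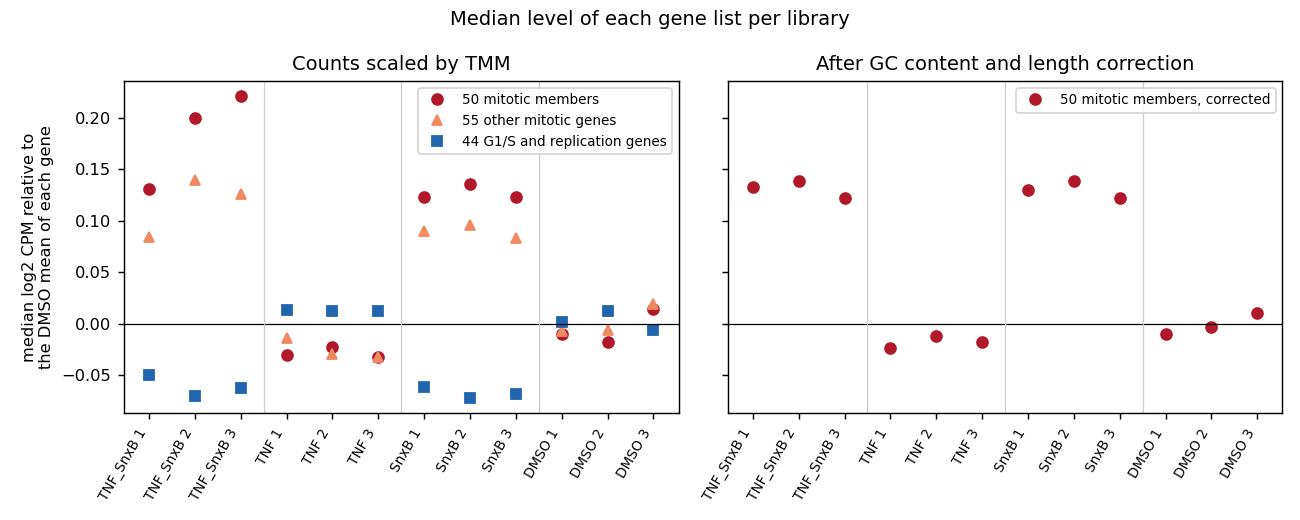
Median log2 CPM of each gene list relative to the DMSO mean of each gene (y axis) in the 12 libraries (x axis), as scaled by TMM for 3 lists (left) and for the 50 members after the GC correction (right). The members lie at 0.122 to 0.139 in all 6 Senexin B libraries on the right, and the G1/S and replication genes on the left lie below 0 in the same libraries.

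In TNF_SnxB against SnxB, which asks what TNFα changed in the presence of the inhibitor, 9 members rose and 2 fell, against 7.38% and 6.83% of all tested genes (edgeR, adjusted p under 0.05). The 9 were ECT2, CENPE, HMMR, ANLN, CDK1, SPC25, TTK, MAD2L1 and TOP2A, at 0.11 to 0.26, and the 2 were CCNF and CDC25B, at -0.16 each. CENPE had 137, 174 and 169 CPM in TNF_SnxB and 133, 136 and 134 CPM in SnxB, and CCNF, the cyclin of an SCF ubiquitin ligase, had 97.2, 85.8 and 83.6 CPM in TNF_SnxB and 98.4, 98.9 and 99.3 CPM in SnxB. In both genes replicate 1 of TNF_SnxB lay near SnxB and replicates 2 and 3 lay away from it. Over the 50 genes the log2 fold change ran against GC content with a Spearman correlation of -0.905, and -0.0348 after the correction. No member was called after the correction, where 4.19% of all genes were (4 members at an unadjusted p under 0.05), without TNF_SnxB replicates 2 and 3, where 1.46% of all genes were (1 at an unadjusted p under 0.05), without replicate 2 alone, or with only the groups compared in the fit. DESeq2 on all libraries called 8 higher and 1 lower. Without TNF_SnxB replicate 3 the count was 1, and without SnxB replicate 1, 2 or 3 it was 4, 5 or 2. Without TNF replicate 1, 2 or 3 it was 6 each time, and without TNF_SnxB replicate 1, 24 rose and 10 fell, against 18.9% and 17.5% of all genes.

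**Figure D5:**
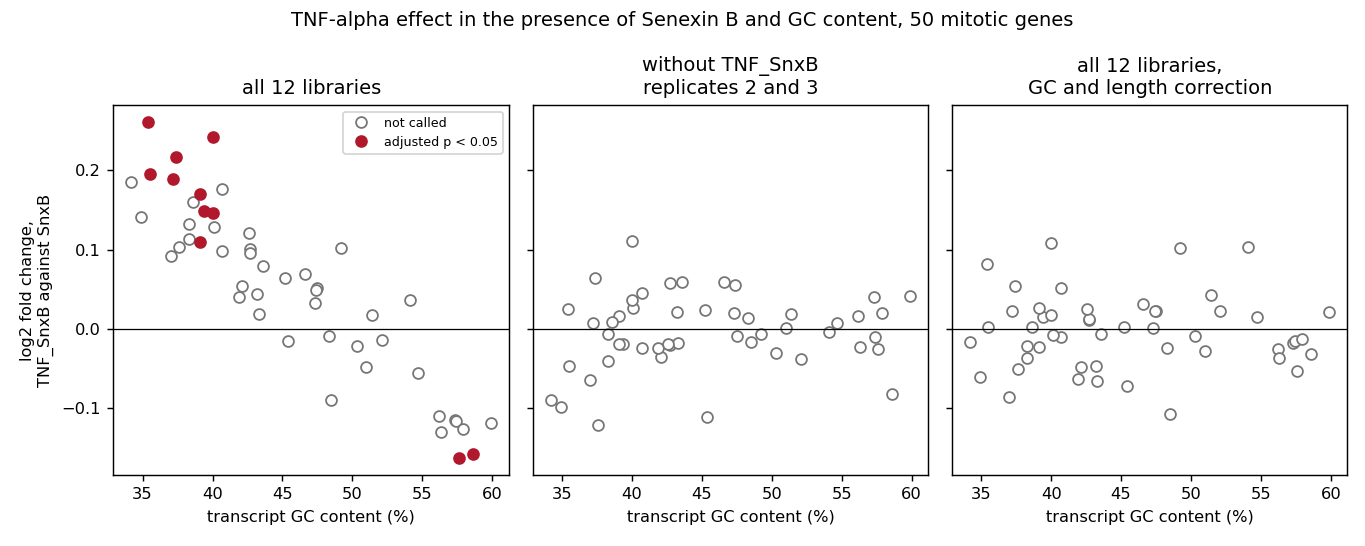
Log2 fold change of TNF_SnxB against SnxB (y axis) over transcript GC content in percent (x axis) for the 50 genes with all 12 libraries, without TNF_SnxB replicates 2 and 3, and after the GC correction, with genes at an adjusted p under 0.05 in red. The downward slope of the left panel, with its 11 called genes at the ends, is not seen in the other panels, which have no called gene.

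The interaction tests whether the effect of Senexin B differed with and without TNFα. It was called for CENPE at 0.36 (SE 0.0837, adjusted p = 0.0298) and HMMR at 0.32 (SE 0.0757, adjusted p = 0.0307), 2 of 50 higher and 0 lower, against 0.891% and 1.61% of all tested genes (DESeq2 called 5 higher and 0 lower). HMMR had 152, 186 and 178 CPM in TNF_SnxB, 130, 137 and 135 CPM in TNF, 160, 148 and 147 CPM in SnxB and 147, 147 and 149 CPM in DMSO. Again replicates 2 and 3 of TNF_SnxB were the high libraries. After the correction the values were 0.12 (adjusted p = 0.433) for CENPE and 0.11 (adjusted p = 0.527) for HMMR, and without replicates 2 and 3 0.12 (adjusted p = 0.726) and 0.13 (adjusted p = 0.673). No member was called by edgeR under either setting, where 0.128% and 0.115% of all genes were (5 and 2 members at an unadjusted p under 0.05), nor without DMSO replicate 1 or 3, any SnxB or TNF replicate, or TNF_SnxB replicate 2 or 3, and without TNF_SnxB replicate 1, 24 were called higher and 6 lower, against 15.4% and 15.1% of all genes. For AURKA, NDC80 and PSRC1 the difference between the effects was 0.11 (SE 0.0602, adjusted p = 0.269), 0.20 (SE 0.0701, adjusted p = 0.0881) and -0.09 (SE 0.0909, adjusted p = 0.568) with all libraries. It was 0.03 (SE 0.045), 0.03 (SE 0.0504) and 0.03 (SE 0.0755) after the correction, and 0.06, 0.09 and 0.02 without replicates 2 and 3.

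Other genes of the cell cycle were taken from lists. Of 55 other mitotic genes 6 rose and 1 fell in SnxB against DMSO, where 0.344% of all tested genes rose and 1.69% fell. The median of the 55 was 0.09. CDCA3, a trigger of mitotic entry, HJURP, the chaperone of CENPA, ESPL1 (separase), RACGAP1, a partner of KIF23 at the central spindle, and DEPDC1 rose by 0.30, 0.28, 0.24, 0.22 and 0.27. HJURP had 63.1, 61.2 and 60.9 CPM in SnxB and 50.8, 52.5 and 49.2 CPM in DMSO, without overlap. CKS2, a subunit that binds CDK1, fell by 0.32, with 99.2, 101 and 99.4 CPM in SnxB and 124, 127 and 122 CPM in DMSO. In TNF_SnxB against TNF 29 of these 55 genes rose and 4 fell, where 13.3% of all genes rose and 13.9% fell. It was 22 and 1 after the correction, against 3.92% and 6.5% of all genes, and 11 and 1 without replicates 2 and 3, against 0.722% and 1.97%. Among them DEPDC1, G2E3, PLK4 and HJURP rose by 0.54, 0.45, 0.44 and 0.35, and were called at 0.29, 0.20, 0.27 and 0.32 after the correction and at 0.29, 0.30, 0.37 and 0.35 without those replicates. ARHGAP11A and CASC5 rose by 0.33 and 0.37, were called at 0.18 and 0.15 after the correction, and were at 0.19 and 0.18 without those replicates (adjusted p of 0.0507 and 0.318).

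Genes of G1/S and DNA replication act earlier in the cycle than mitotic genes. Of 44, 0 rose and 6 fell in SnxB against DMSO, with a median of -0.06. Of all tested genes 0.344% rose and 1.69% fell. At an unadjusted p under 0.05, 0 of the 44 were higher, against 5.28% of all genes, and DESeq2 called 0 higher and 6 lower. RRM2, a subunit of ribonucleotide reductase, had 271, 282 and 271 CPM in SnxB and 361, 341 and 362 CPM in DMSO, and fell by 0.37 (SE 0.0406, adjusted p = 2.61e-07). CCND1 (cyclin D1) fell by 0.48, with 49.9, 53.9 and 51.6 CPM in SnxB and 71.6, 74.6 and 71.3 CPM in DMSO. SLBP, the binding protein of histone mRNA, CDC25A, E2F3 and CCND2 fell by 0.27, 0.26, 0.29 and 0.26. In TNF_SnxB against TNF 3 of the 44 rose and 18 fell, where 13.3% of all genes rose and 13.9% fell. It was 1 and 17 after the correction, against 3.92% and 6.5% of all genes, and 0 and 5 without replicates 2 and 3, against 0.722% and 1.97%. CCND1, RRM2 and SLBP fell by 0.59, 0.27 and 0.23, and were called at -0.54, -0.36 and -0.23 after the correction and at -0.52, -0.38 and -0.23 without those replicates. CDT1, UHRF1 and MCM7 fell by 0.33, 0.32 and 0.21 there, but CDT1 was not called after the correction (-0.09, adjusted p = 0.0859) and UHRF1 and MCM7 were not called without replicates 2 and 3 (-0.14 and -0.08, adjusted p = 0.0852 and 0.155). CDT1 was at -0.18 without those replicates, and UHRF1 and MCM7 at -0.20 and -0.09 after the correction, each called.

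Of 16 subunits and regulators of the APC none was called in SnxB against DMSO by edgeR or DESeq2, with a median of 0.01. By edgeR 0.344% of all tested genes rose and 1.69% fell. At an unadjusted p under 0.05, 2 of the 16 passed, where 5.28% of all genes were higher and 6.79% lower. In TNF_SnxB against TNF 3 of these 16 rose and 3 fell, where 13.3% of all genes rose and 13.9% fell. CDC27, a core subunit, rose by 0.34, and by 0.15 after the correction and 0.16 without replicates 2 and 3. FBXO5 (EMI1), an inhibitor of the APC, was at -0.16, and at -0.34 and -0.32 under these settings, called lower in each. CDC23, ANAPC10, ANAPC11 and ANAPC2, at 0.15, 0.26, -0.22 and -0.20, were not called after the correction (0.04, 0.08, -0.09 and 0.02) or without replicates 2 and 3 (0.06, 0.15, -0.03 and 0.03). Of 18 regulators of mitotic transcription, among them DREAM subunits, NF-Y subunits and FOXM1, itself 1 of the 50, none was called in SnxB against DMSO by either tool. At an unadjusted p under 0.05, 3 of the 18 passed, where 5.28% of all genes were higher and 6.79% lower. In TNF_SnxB against TNF 4 of them rose and 3 fell, against 13.3% and 13.9% of all genes, with LIN9, LIN52 and LIN54 at 0.28, 0.28 and 0.22 and CDKN1A (p21), an inhibitor of cyclin-dependent kinases, and MYBL2 (B-MYB) at -0.42 and -0.18. After the correction 3 were called higher and 2 lower, against 3.92% and 6.5% of all genes. CDKN1A, LIN9 and LIN52 stayed called at -0.29, 0.15 and 0.20, while LIN54 and MYBL2 were at 0.06 and -0.02 without a call. None of the 18 was called without replicates 2 and 3 (3 at an unadjusted p under 0.05), where CDKN1A, LIN9, LIN52, LIN54 and MYBL2 were at -0.27, 0.09, 0.17, 0.15 and -0.04. In TNF against DMSO none of the APC genes, the 44 G1/S genes or the 55 other mitotic genes was called by edgeR or DESeq2 (0, 2 and 8 at an unadjusted p under 0.05 by edgeR). Of all tested genes 1.43% were called higher and 0.594% lower by edgeR, and 5.07% were lower at that unadjusted p.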

How the data were processed

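Total RNA of HEK293 cells was sequenced from TruSeq RNA libraries, per the labels' protocols. The deposited table of the authors holds raw whole-number counts, a row for each gene symbol and a column for each library. The submitters' processing notes name the build hg38 (GRCh38), featureCounts (Subread 1.4.6), STAR 2.4 and SAMtools 1.2. For the annotation and the strand setting, nothing is given in the sources used here. Reads that could not be told apart between overlapping genes or copies can therefore shift single genes.

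Of 56634 symbols, 14822 passed filterByExpr. TMM-scaled counts entered the edgeR 4.0.16 quasi-likelihood model (R 4.3.3, limma 3.58.1) on group means over all 12 libraries, with two-sided tests, Benjamini-Hochberg adjustment over all tested genes and calls at an adjusted p under 0.05. CPM of genes use the TMM library sizes, and the detection floor uses the raw totals. DESeq2 1.42.0, its size factors, no filter on low counts, a fit of the compared groups alone, a replicate block, offsets for GC content and length (loess, span 0.3, GENCODE release 29 transcripts, 92.4% of tested genes matched), leaving out libraries, and thinning TNF replicate 2 were the alternatives. Same-numbered libraries of different groups did not deviate together (correlation -0.0372 to 0.0823 over 18 pairs), and the main fit pairs no samples. Deviations from the mean of 3 libraries cannot show whether same-numbered cultures were handled together. The biological coefficient of variation was 3.49%. Intervals between libraries reflect 3 cultures a group, and the detection floor covers counting error only. Python 3.11.15 with matplotlib 3.10.9 drew the figures, and the tests were checked on simulated data.

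The 50 members, the role groups and the other lists (other mitotic genes, APC subunits, regulators of mitotic transcription, G1/S and replication genes, HEK293 markers, markers of other cell types) were chosen with earlier results of these data known. Every called member is named. From the other lists up to 6 called genes with the smallest adjusted p are named, and MYC, CDK8, CDK19 and CCNC served as checks of the inhibitor. CDK19 and CCNC were not called in SnxB against DMSO, and were called higher in TNF_SnxB against TNF (log2 fold change 0.19 and 0.22) and in TNF_SnxB against SnxB (0.28 and 0.21). Neither was called in these comparisons after the correction (0.06 and 0.05, and 0.18 and 0.07) or without TNF_SnxB replicates 2 and 3 (-0.04 and -0.01, and 0.05 and -0.02).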

Additional observations from a re-analysis of the deposited data

Results flagged for a closer look

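The effect of Senexin B on 6 genes differed with and without TNFα by a test of the interaction (edgeR, adjusted p under 0.05). Among the 50 mitotic genes these were CENPE, with an interaction of 0.3599, and HMMR, with 0.3222 on the log2 scale. From the other mitotic genes they were SMC4 at 0.2729, ASPM at 0.2989, PKMYT1 at -0.3406 and UBE2S at -0.2815. Without TNF_SnxB replicates 2 and 3 none of the 6 was called (adjusted p of 0.726, 0.673, 0.63, 0.922, 0.772 and 0.643 in that order), nor after offsets for GC content and length (0.433, 0.527, 0.425, 0.586, 0.957 and 0.145). SMC4, a condensin subunit, had 353, 420 and 415 CPM in TNF_SnxB, 334, 328 and 331 CPM in TNF, 361, 355 and 347 CPM in SnxB and 359, 349 and 363 CPM in DMSO, so that replicates 2 and 3 of TNF_SnxB were the high libraries. PKMYT1, an inhibitory kinase of CDK1, had 76.7, 64.6 and 60.4 CPM in TNF_SnxB, 83.3, 79.4 and 79.3 CPM in TNF, 72, 73.8 and 74.3 CPM in SnxB and 67.6, 74.9 and 67.8 CPM in DMSO, with the same libraries the low ones.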

How the results depend on the processing

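Of the 50 genes, 14 were called in SnxB against DMSO, 0 in TNF against DMSO, 37 in TNF_SnxB against TNF, 11 in TNF_SnxB against SnxB and 2 in the interaction, and of all tested genes 301, 300, 4029, 2106 and 370. Leaving out 1 library at a time gave 5 to 31, 0 to 3, 32 to 44, 0 to 34 and 0 to 30 members, and 171 to 883, 177 to 873, 1869 to 6784, 503 to 5402 and 3 to 4521 genes. With GC content and length corrected, 31 members and 754 genes were called in SnxB against DMSO, 600 genes in TNF against DMSO, 1545 genes in TNF_SnxB against TNF, 0 members and 621 genes in TNF_SnxB against SnxB and 0 members and 19 genes in the interaction, and with the replicate block added to it 31 members and 789, 605, 1543, 644 and 28 genes, again with 0 members in the last 2. Without TNF_SnxB replicates 2 and 3 it was 31, 3, 22, 0 and 0 members and 871, 866, 399, 217 and 17 genes. With only the groups compared, 31, 3 and 0 members were called in SnxB against DMSO, TNF against DMSO and TNF_SnxB against SnxB, and 735, 776, 2438 and 510 genes in the 4 pairwise comparisons. In the interaction DESeq2 called 5 members, no filter on low counts 7 members and 711 genes, and the replicate block 5 members and 736 genes, while the block changed no other count by over 1.5 times. The direction turned for KIF20B in TNF_SnxB against TNF (-0.005335 corrected, -0.002142 corrected with the block, -0.01377 without replicates 2 and 3) and, in TNF_SnxB against SnxB, for CDK1 (-0.04651) and MAD2L1 (-0.01861) without replicates 2 and 3 and TOP2A (-0.02247 corrected, -0.02185 corrected with the block, -0.01922 without them). In the corrected values every log2 change comes with the matched 92.4% of genes, and the cause of these shifts was not tested. With 3 cultures a group, changes of 0.1 in the less abundant members such as SGO1 and CENPA lie within about 1 or 2 SE.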
